A study of Mus musculus with 9 samples.

Results

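Lymphatic endothelial cells line the vessels that drain fluid, lipids and leukocytes from tissue. In the heart they form a network of capillaries and collecting vessels that returns interstitial fluid to the lymph nodes. Their identity is set by the transcription factor Prox1, their growth is driven by VEGF-C through the receptor Flt4 (VEGFR3), and they attract dendritic cells and T cells with the chemokine Ccl21a. The nuclei described here came from a single-nucleus RNA sequencing (sNuc-seq) study of mouse hearts, in which every captured transcript carries a unique molecular identifier (UMI).

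Lymphatic endothelial nuclei were taken by a rule. A nucleus needed at least 3 of 8 lymphatic genes (Reln, Mmrn1, Flt4, Prox1, Ccl21a, Tbx1, Pard6g and Tc2n) above 0. No more than 2 of 9 genes of endocardium, cardiomyocytes, fibroblasts and macrophages (Npr3, Tmem108, Smoc1, Rbm20, Ldb3, Mhrt, Abca8a, Scara5 and Csf1r) could be above 0. The rule found 773 of 49171 nuclei (1.57%), with 49 to 100 per mouse. The study's text describes more cells than the nuclei analysed here, so shares refer to the latter.

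Each of the 3 groups held 3 C57BL/6 mice, young adults per the study's methods, and the tissue lay below the ligation. Sham mice were given vehicle by gavage for 7 days and then had the needle passed without ligation. I/R mice were given the same vehicle for 7 days, then 30 min of ligation of the left anterior descending artery (LAD) and 24 h of recanalization. SBP mice were given Shexiang Baoxin Pill (MUSKARDIA in the labels), a traditional Chinese medicine, over 7 days and then the same ischemia with reperfusion. The comparisons asked how lymphatic nuclei differed after I/R, and how they differed when SBP had been given first.

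The 9 libraries held 4576 to 6418 nuclei and 10329520 to 18205985 UMIs. Lymphatic nuclei gave 1892603 UMIs in all, between 107627 (sham replicate 3) and 315932 (SBP replicate 2) per mouse. The median lymphatic nucleus held 1654 ± 381 UMIs in sham mice, 2190 ± 194 after I/R and 2157 ± 237 with SBP (mean ± SD of 3 mice). For I/R against sham a two-sided exact permutation test gave p = 0.2, where 3 against 3 cannot go below 0.1. Of 290 barcodes that occurred in more than 1 library, 8 belonged to a lymphatic nucleus and 0 were lymphatic in both libraries. In SBP replicate 2, a single nucleus of 41143 UMIs supplied 13% of the lymphatic UMIs, and in the other libraries the deepest nucleus supplied 3.31% to 6.84%.

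The chosen nuclei carried lymphatic genes that the rule did not use. Lyve1, a hyaluronan receptor of lymphatic capillaries, had a UMI in 35.3% of lymphatic nuclei and in 1.91% of other blood endothelial nuclei. Pdpn (podoplanin) was detected in 25.7% against 2.83%. Maf, a transcription factor of lymphatic differentiation, was detected in 75.5% against 10.3%. Other blood endothelial nuclei were the 8220 nuclei with at least 3 of 11 endothelial genes, fewer than 3 lymphatic genes, at most 2 of the 6 excluded genes of other tissues and no Npr3, Tmem108 or Smoc1. The 11 endothelial genes were Pecam1, Cdh5, Flt1, Kdr, Ptprb, Emcn, Egfl7, Tek, Tie1, Cyyr1 and Shank3. Their median depth was 1113 to 1230 UMIs by group, lower than that of lymphatic nuclei, so these shares are not at equal depth.

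The rule's own genes are given as a description, since they chose the nuclei. Reln, a secreted glycoprotein made by lymphatic endothelium, had a UMI in 92.5% of lymphatic nuclei and in 1.8% of other blood endothelial nuclei. The share was 80.1% for Mmrn1, an extracellular matrix glycoprotein, and also 80.1% for Flt4. Prox1 was found in 70.4% of lymphatic nuclei, in 3.66% of other blood endothelial nuclei and in 14.1% of nuclei that were not endothelial. The class called not endothelial held the 35021 nuclei that met neither the lymphatic rule nor the above limits on endothelial, lymphatic and the 6 excluded genes. It can therefore hold endothelial nuclei that failed these limits. Ccl21a was found in 55.2%, and reads of its near-identical neighbours Ccl21b and Ccl21c could have been split among the copies. All 8 genes were above 0 in 45 nuclei, 5 or 6 of them in 165 and 186 nuclei, and exactly 3 in 110 nuclei. Just outside the threshold lay 324 nuclei with 2 of the genes. A further 90 nuclei met the lymphatic part and were left out for more than 2 of the other genes. These are counted in the class called not endothelial.

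General endothelial genes were also present. At least 2 of the 11 endothelial genes were above 0 in 740 of the 773 nuclei (95.7%), and 3 nuclei had none. Pecam1, an adhesion molecule of all endothelium, was detected in 60% of lymphatic and 62% of other blood endothelial nuclei. Lymphatic nuclei were deeper, so these shares too are not at equal depth. Flt1 (VEGFR1), a receptor of blood vessels, was detected in 19% against 80.1%. Pecam1 and Flt1 were among the 11 genes that chose the other blood endothelial nuclei. Their shares in those nuclei were therefore partly set by that choice. Rgcc, a capillary gene, was detected in 3.88% against 27.8%. Lymphatic genes outside the rule were thus present in the nuclei chosen, and capillary genes were low.

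Levels were compared within mice, as CPM, the UMIs of a gene summed over the nuclei of a class and scaled to a common total. Of 22 further lymphatic genes, 14 passed the filter, which was set on levels in lymphatic nuclei and so favoured genes high there. Of these 14, 13 were higher in lymphatic than in other blood endothelial nuclei in all 9 mice, and Gata2 was lower in 8 of them. Genes left out included Foxc2, Cldn11, Ackr4 and Stab2, with 23, 3, 6 and 26 UMIs over all lymphatic nuclei. Of all 4898 genes tested, 684 (14%) were higher in all 9 mice. Because the nuclei had been chosen on lymphatic genes, no test was made. Outside the rule, the 3 largest ratios belonged to Pld5, Col23a1 and Sema3a. Pld5 reached 431 CPM in lymphatic nuclei and 2.12 CPM in other blood endothelial nuclei. Col23a1, a transmembrane collagen, reached 860 against 13.2 CPM, with 239 CPM in endocardial-like nuclei. Sema3a, a secreted guidance cue that takes part in the formation of lymphatic valves, reached 1906 against 34.8 CPM. Its log2 ratio was 5.56 ± 0.62 (SD of 9 mice). The levels plot sets these genes beside the genes of the rule.

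**Figure D1:**
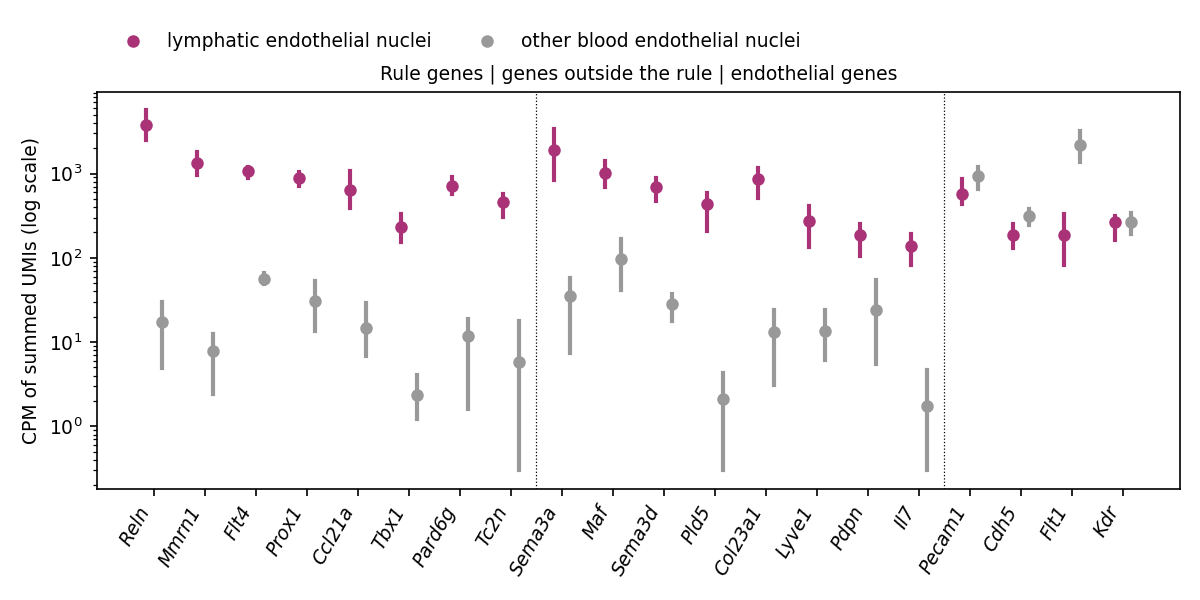
Levels in lymphatic endothelial (purple) and other blood endothelial nuclei (grey), as CPM of summed UMIs on a log axis. Points are means and lines run from the lowest to the highest of 9 mice, with a lowest value of 0 drawn at 0.3. The 8 genes of the rule are on the left, 8 genes outside it in the middle and 4 endothelial genes on the right. These 4 were among the genes that chose the other blood endothelial nuclei. Flt1 is the gene of the right-hand set that lies far lower in lymphatic nuclei (189 against 2165 CPM).

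Further values are given for the 20 genes outside the rule with the largest ratios. Il7, a cytokine that keeps lymphocytes alive, had 138 CPM in lymphatic nuclei against 1.77 CPM. Sema3d, a further semaphorin, had 689 against 28.7 CPM. Plce1, a phospholipase C, had 1988 against 94.4 CPM, and Kcnn3, a calcium-activated potassium channel, had 384 against 14.8 CPM. Adgrg3, an adhesion G protein-coupled receptor, had 460 against 17.7 CPM. All 20 genes were also higher than in endocardial-like nuclei in 9 of 9 mice, although Gpm6a was close, at 502 against 429 CPM. The others were Sh3gl3, Emid1, Adamtsl1, Apba2, Fgf12, Sgsm1, A830019P07Rik, Prkcz, Tnfaip8l3, Slc45a3 and Dtx1.

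Capillary genes lay on the low side of the profile. All 8 capillary genes that passed the filter were lower in lymphatic nuclei in 9 of 9 mice, with log2 ratios from -3.13 to -1.28, as were 544 of all 4898 genes (11.1%). Fabp4, a carrier of fatty acids, had 176 against 1333 CPM, and Cd36, a fatty acid transporter, 357 against 2503 CPM. Nrp1, a coreceptor of VEGF-A, had 195 against 1101 CPM, while Nrp2, the coreceptor of VEGF-C, had 1147 against 418 CPM. Vegfc itself was lower in lymphatic nuclei, at 56.2 against 385 CPM. Of 14 general endothelial genes, 9 were lower in all 9 mice (11.1% of all genes) and 1 was higher (14% of all). Pecam1 had 575 against 930 CPM. These genes included those that chose the other blood endothelial nuclei.

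The share of lymphatic nuclei was compared first. It was 1.88%, 1.69% and 0.886% in sham mice, 1.25%, 1.77% and 1.59% after I/R and 1.84%, 1.64% and 1.76% with SBP. The groups overlapped, and sham replicate 3 had the lowest share of the 9. On the log2 scale, I/R differed from sham by 0.10 (SE 0.31, adjusted p = 0.737 in limma), SBP from I/R by 0.20 (SE 0.31, adjusted p = 0.798 in limma) and SBP from sham by 0.30 (SE 0.31, adjusted p = 0.511 in limma). These p-values were adjusted over the 3 endothelial classes. The two-sided exact permutation p-values were 0.9, 0.3 and 0.7. Without sham replicate 3, the difference between I/R and sham was -0.23 (limma adjusted p = 0.514), and that between SBP and sham was -0.03. With every nucleus thinned to 1000 UMIs, I/R differed from sham by 0.12.

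Among endothelial nuclei only, lymphatic nuclei made up 5 ± 1.95% in sham mice, 5.86 ± 0.629% after I/R and 5.86 ± 1% with SBP (mean ± SD, n = 3 per group). The two-sided exact permutation p-values were 0.6 for I/R against sham, 1 for SBP against I/R and 0.7 for SBP against sham. These shares depended on the limit on excluded genes, which left out 48 further nuclei of sham mice, 21 of I/R mice and 21 of SBP mice. When no excluded gene was allowed, the share of all nuclei differed from sham by 0.61 on the log2 scale in I/R (unadjusted p = 0.0733 in limma, adjusted p = 0.22). For SBP it differed from sham by 0.71 (unadjusted p = 0.041 in limma, adjusted p = 0.123). No comparison of the share passed adjustment under any setting tried.

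**Figure D2:**
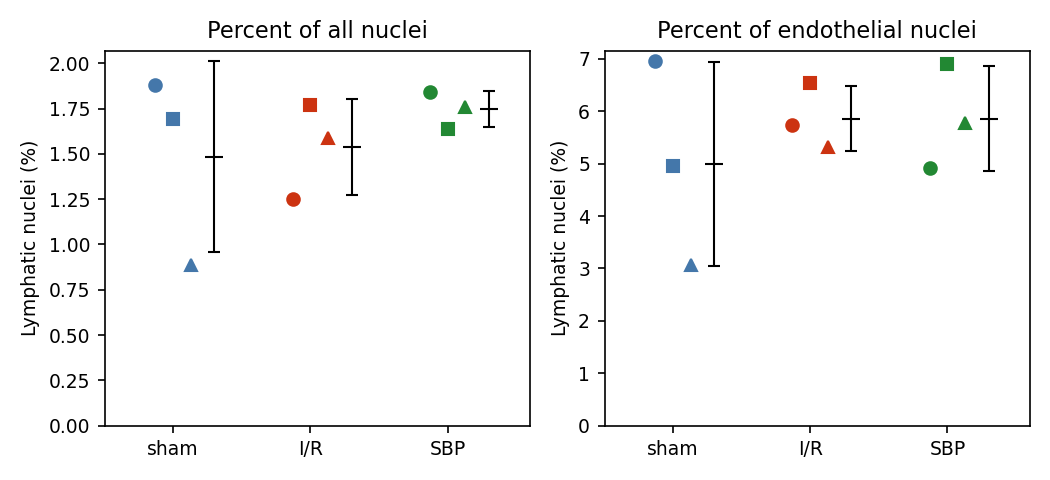
Lymphatic nuclei as a percentage of all nuclei (left) and of endothelial nuclei (right) in each mouse. Coloured points are mice (circle, square and triangle for replicates 1, 2 and 3) and black bars are the mean ± SD of 3. The groups overlap, and the lowest sham point is replicate 3, at 0.886% and 3.06%.

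The comparison of I/R with sham gave the largest number of calls. Of 4898 genes tested, 72 passed (1.47%), of which 51 rose (1.04%) and 21 fell (0.429%). The split between directions varied with the setting. It was more even at 42 higher and 32 lower with total UMIs in place of TMM and 37 and 36 with only the 6 mice compared. The same was so without I/R replicate 1 (52 and 43) and with no limit on excluded genes (53 and 49). The split was less even without sham replicate 2 (49 and 9), without sham replicate 1 (29 and 6) and with no excluded gene allowed (20 and 5). An unadjusted p under 0.05 was reached by 686 genes (14.0%). The smallest adjusted p belonged to Sema3a. It rose from 1027, 838 and 829 CPM in sham to 1911, 3389 and 2940 CPM in I/R mice. SBP mice had 2172, 1854 and 2197 CPM. No I/R or SBP mouse overlapped the sham mice, as was so for 17.2% of all genes after I/R and for 16.6% in the SBP group. The log2 fold change was 1.57 (SE 0.19, adjusted p = 6.63e-05 in limma) in I/R and 1.21 (SE 0.19, adjusted p = 0.00308 in limma) in SBP mice. The call for I/R held in each of the 9 fits without 1 library, while that for SBP against sham was lost without sham replicate 3 (adjusted p = 0.0642). Sema3a lies on the plus strand of chromosome 5 (13125414 to 13602565, GRCm38).

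The number of calls depended on single mice. Leaving out sham replicate 1 left 35 calls, sham replicate 3 left 20 and I/R replicate 2 left 22, of which 30, 18 and 19 were among the 72. All 72 genes kept their direction in every alternative in which they were tested. They had been chosen for that difference in the same mice, so an unchanged direction was favoured in advance. Of the 72, 15 would not have passed the filter on low levels without the group in which they were high, so a difference was built into their selection. They were Spp1, Serpina3n, Adamts12, Pdk4, Col1a1, Stx12, Cd38 and Arntl, high in I/R mice, and Aqp1, Car10, Dbp, Pgam2, Tspan7, Duox2 and Ephx1, high in sham mice. This count took out 1 group at a time. Col3a1, Alcam, Ddah1, Tbc1d30, Adam9 and Baz1a reached the filter in 0 sham mice and passed it through I/R and SBP mice together. A difference from sham was thus built into their selection as well. With no filter, 55 of the 72 were called. Dependence on the filter was examined for called genes only, so uncalled members of the gene lists below may share it. In 10 genes the call held without any 1 library: Sema3a, Cmah, Lgmn, Adamts5, Pdlim1 and Cyyr1 rose, and Aqp1, Ushbp1, Myl2 and Tnni3 fell. With no limit on excluded genes the calls of Aqp1 and Tnni3 were lost (limma adjusted p = 0.186 and 0.128). That of Adamts5 was lost with no excluded gene allowed (limma adjusted p = 0.0702). These 10 are shown mouse by mouse.

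**Figure D3:**
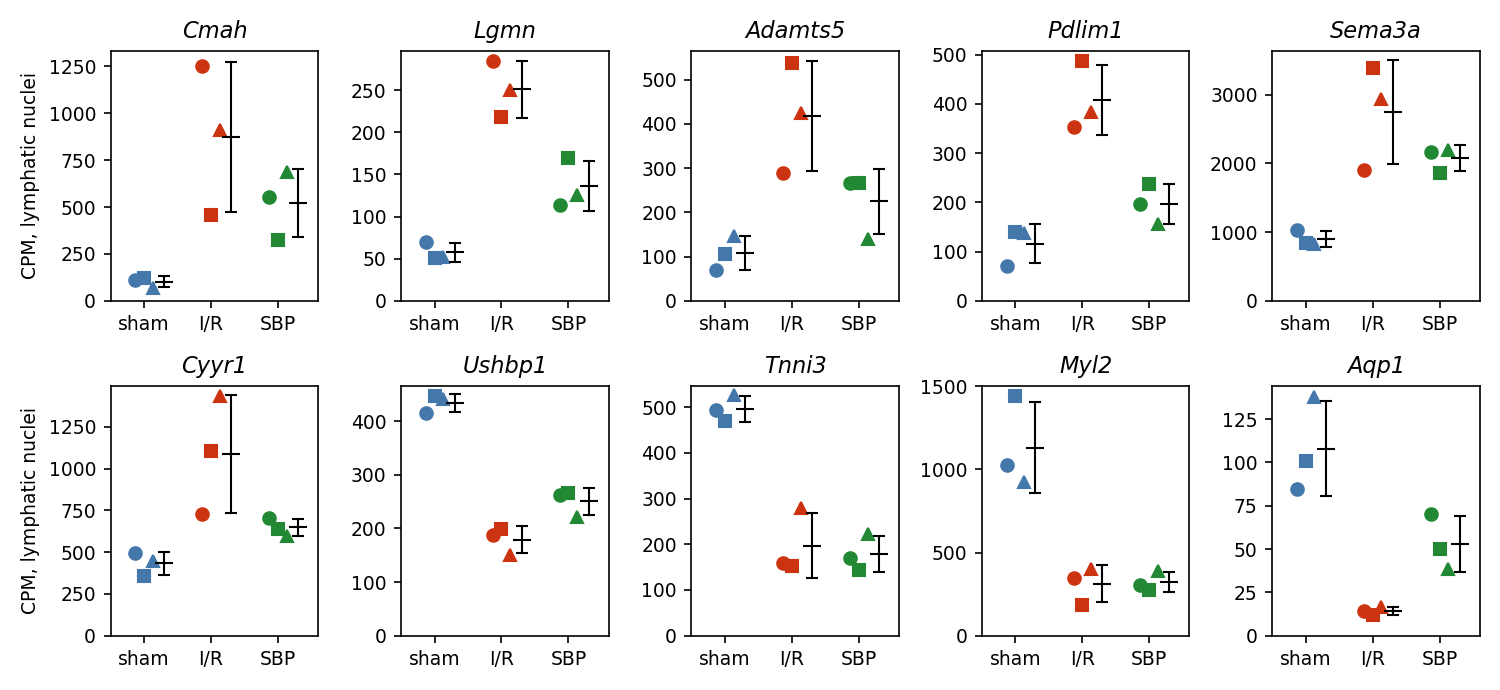
CPM in lymphatic nuclei of the 10 genes whose call in I/R against sham held in every fit that left out 1 library. Coloured points are mice (circle, square and triangle for replicates 1, 2 and 3), black bars are the mean ± SD of 3, and every axis starts at 0. I/R points do not overlap sham points in any panel, and the SBP means lie between those of sham and I/R except for Tnni3. The genes were chosen for their difference between sham and I/R, so the place of the SBP means is a description. None of them passed in SBP against I/R. Aqp1 would not have passed the filter without the sham mice.

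Cmah encodes the enzyme that makes the sialic acid Neu5Gc. It lies on the plus strand of chromosome 13 (24327404 to 24477377, GRCm38). Its level was 113, 123 and 69.1 CPM in sham, 1254, 456 and 908 CPM in I/R and 552, 324 and 686 CPM in SBP mice. Every I/R and SBP mouse was above every sham mouse. The log2 fold change was 2.97 in I/R (SE 0.38, adjusted p = 0.00353 in limma) and 2.28 in SBP mice (SE 0.38, adjusted p = 0.0403 in limma). The latter was lost when sham replicate 1, 2 or 3, I/R replicate 3 or SBP replicate 1 or 3 was left out (adjusted p up to 0.138). Cmah overlaps the annotated Gm11342. In other blood endothelial nuclei Cmah had 73.3 CPM in sham and 67.8 CPM in I/R mice.

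Pdlim1, a cytoskeletal adaptor of actin fibres, and Adamts5, a protease that cuts versican and other proteoglycans, also rose. Pdlim1 went from 70.4, 140 and 138 CPM in sham to 352, 487 and 383 CPM in I/R mice (1.82 on the log2 scale with an SE of 0.26, adjusted p = 0.000402 in limma). SBP mice lay between, at 197, 237 and 155 CPM. Adamts5 went from 108 ± 38.3 to 417 ± 124 CPM (mean ± SD, n = 3; 1.92 on the log2 scale with an SE of 0.30). Cyyr1, an endothelial gene used in the rule for other endothelial nuclei, went from 433 ± 69 to 1090 ± 354 CPM (1.28 on the log2 scale with an SE of 0.21).

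Aqp1, a water channel of capillaries and other endothelium, showed the largest fall of the 21. It had 84.4, 101 and 138 CPM in sham, 14.5, 11.7 and 16.7 CPM in I/R and 70.1, 50.1 and 38.6 CPM in SBP mice. The 3 groups did not overlap, where 10.0% of all genes did not overlap between SBP and I/R. The log2 fold change of I/R against sham was -2.54 (SE 0.41, adjusted p = 0.00171 in limma). That of SBP against I/R was 1.57 (SE 0.41, unadjusted p = 0.000856) and did not pass adjustment (limma adjusted p = 0.748). Aqp1 would not have passed the filter without the sham mice, so a difference was built into its selection. In other blood endothelial nuclei Aqp1 had 294 ± 118 CPM in sham and 161 ± 48.6 CPM in I/R mice. Ushbp1 fell from 434 ± 16.8 to 179 ± 25.8 CPM (-1.27 on the log2 scale with an SE of 0.21, adjusted p = 0.00171 in limma).

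Car10 and Duox2, which were at most 3.86 CPM on average in endocardial-like, other blood endothelial and non-endothelial nuclei, fell. Like Tspan7 and Ephx1 below, they would not have passed the filter without the sham mice. Car10, a carbonic anhydrase-related protein, had 91.5, 89.4 and 130 CPM in sham and 24.1, 23.4 and 4.16 CPM in I/R mice. The log2 fold change was -2.46 (SE 0.48, adjusted p = 0.00882 in limma), and the call was lost without sham replicate 3 (adjusted p = 0.0791). Duox2, an enzyme that makes hydrogen peroxide, fell from 80.2 ± 8.6 to 22.5 ± 13 CPM (log2 fold change -1.73). Its call was lost when any 1 of 6 libraries was left out, namely sham replicates 1, 2 and 3, I/R replicates 1 and 2 or SBP replicate 3 (adjusted p up to 0.151). Pgf, the placental growth factor that binds Flt1, fell from 155, 128 and 216 CPM to 38.6, 66.3 and 45.8 CPM. Its call (limma adjusted p = 0.0179) was lost without sham replicate 1 or 3 (adjusted p up to 0.0934). The other named genes that fell were Tspan7, a tetraspanin (log2 fold change -1.82), and Ephx1, an epoxide hydrolase (-1.71), both at a limma adjusted p of 0.0179. Both calls were lost without sham replicate 1 or 3, and further without I/R replicate 2 for Tspan7 and I/R replicate 3 for Ephx1 (adjusted p up to 0.129 and 0.121).

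For a second set of named genes, values of other nuclei are set beside them. Of the 72 called genes, 68 had a fold change of the same sign in other blood endothelial nuclei. Ephx1, Serpina3n, Col1a1 and Ftl1 were among these. The share over all genes was not counted and both classes came from the same mice, so the 68 are a description. Spp1 (osteopontin), made by macrophages after injury, had 0 UMIs in the 3 sham mice. It had 400, 15.6 and 146 CPM in I/R and 17.5, 117 and 33.8 CPM in SBP lymphatic nuclei. Against a floor of 3 UMIs over the sham group, I/R was at least 26.2-fold higher, and at least 11.3-fold without I/R replicate 1. In I/R mice Spp1 had 299 CPM in other blood endothelial and 199 CPM in non-endothelial nuclei. The Spp1 call (limma adjusted p = 0.0172) was lost without sham replicate 1, 2 or 3 (adjusted p up to 0.0791), and Spp1 fell below the filter and was not tested without I/R replicate 1 or 3 or SBP replicate 2. Lgmn, a lysosomal protease, rose from 57.5 ± 11.2 to 251 ± 33.2 CPM (2.04 on the log2 scale with an SE of 0.28, adjusted p = 0.000237 in limma), and from 33.7 to 168 CPM in other blood endothelial nuclei. Myl2, a cardiomyocyte myosin light chain, fell from 1131 ± 273 to 311 ± 111 CPM, and from 1987 to 556 CPM in other blood endothelial nuclei. Tnni3 (cardiac troponin I) and Pgam2, a muscle phosphoglycerate mutase, fell by 1.37 and 2.08 on the log2 scale. The Pgam2 call was lost without I/R replicate 1, 2 or 3 (adjusted p up to 0.157), and the gene, which reached the filter in sham mice alone, was not tested without any 1 sham library.

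The remaining named genes that rose had low levels in lymphatic nuclei of sham mice. Col3a1 and Col1a1, fibrillar collagens of fibroblasts, rose from 25.8 to 222 CPM and from 13.2 to 106 CPM. Non-endothelial nuclei had 707 and 237 CPM of them in I/R mice. Serpina3n, an acute-phase protease inhibitor, had 28.1, 5.59 and 0 CPM in sham and 48.2, 203 and 104 CPM in I/R mice. Adamts12 (log2 fold change 3.02), Pdk4, which inhibits pyruvate dehydrogenase (2.99), Alcam, an adhesion molecule of leukocytes and endothelium (2.23), and Ftl1, the ferritin light chain (2.16), also passed in limma. Reads of Ftl1 can be shared with its pseudogenes. Serpina3n, Adamts12, Pdk4 and Col1a1 would not have passed the filter without the I/R mice. Col3a1 and Alcam reached it in I/R and SBP mice alone. The calls of all these genes were lost when single libraries were left out. For Col3a1 (sham replicates 1 and 3, I/R replicate 2) the largest adjusted p was 0.152, and for Col1a1 (sham replicate 3, I/R replicates 1 and 2) 0.103. For Serpina3n (sham replicates 2 and 3, I/R replicates 2 and 3) it was 0.279. For Adamts12 (sham replicate 3, all I/R replicates, SBP replicates 1 and 2) it was 0.29, and for Pdk4 (sham replicates 1 and 3, all I/R replicates, SBP replicates 1 and 3) 0.192. Alcam was lost without sham replicate 3, I/R replicate 1 or I/R replicate 2 (up to 0.081), and Ftl1 without sham replicate 1, sham replicate 3 or I/R replicate 2 (up to 0.0635). Over all alternatives the largest limma adjusted p was higher for Alcam (0.298), Pdk4 (0.297) and Ftl1 (0.153).

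Markers of other cell types were summed in the lymphatic nuclei to set beside these genes. Genes that the rule used, genes called in any comparison and the endothelial gene Mecom were left out of the sums. The 7 of 12 cardiomyocyte genes that remained (such as Ttn and Ryr2) summed to 3870 to 4299 CPM in sham, 1732 to 2755 CPM in I/R and 1193 to 4366 CPM in SBP mice. Without nuclei over 3 times the median depth they summed to 4127 to 4767 CPM in sham, 1842 to 3059 CPM in I/R and 1524 to 2418 CPM in SBP mice, and all SBP mice then lay below all sham mice. In non-endothelial nuclei they summed to 24353 to 29709 CPM in sham and 14609 to 18561 CPM in I/R mice. The 6 of 11 fibroblast genes that remained (such as Dcn and Pdgfra) summed to 267 to 380 CPM in sham and 584 to 658 CPM in I/R mice. The 13 of 15 myeloid genes summed to 415 to 795 CPM in sham and 788 to 812 CPM in I/R mice, with overlap. The 11 lymphocyte genes summed to at most 60.5 CPM, with Ms4a1 at 0. In SBP replicate 2 the fibroblast sum was 1136 CPM and the sum of 7 mural genes 1046 CPM, and 439 and 187 CPM without those deep nuclei. The part of these transcripts in the changes of Spp1, Lgmn, Myl2, Tnni3, Pgam2, Col1a1 and Col3a1 was not tested.

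**Figure D4:**
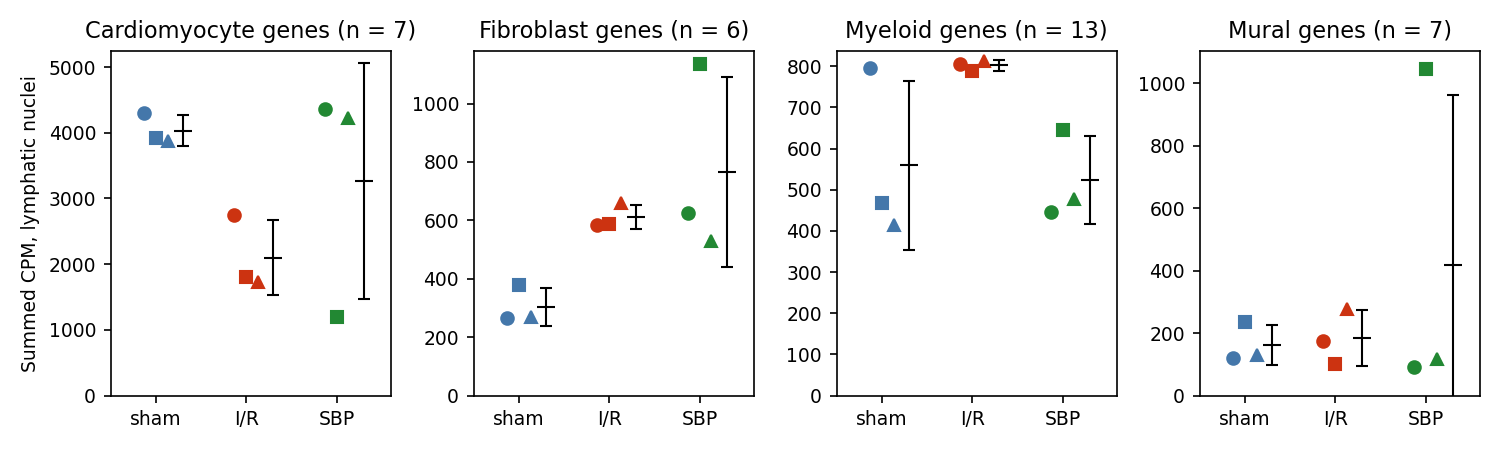
Summed CPM of marker genes of other cell types in the lymphatic nuclei of each mouse, without rule genes, called genes and Mecom. Coloured points are mice (circle, square and triangle for replicates 1, 2 and 3) and black bars are the mean ± SD of 3. Cardiomyocyte sums are lower in all I/R than in all sham mice, fibroblast sums are higher, and SBP replicate 2 (green square) is the highest point in the fibroblast and mural panels, where its group's mural bar runs below 0 and ends at the axis.

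The identity genes of lymphatic endothelium were examined by role. The 8 genes of the rule are described without a test, since every nucleus had been chosen for some of them. Their log2 fold changes in I/R against sham ran from -0.47 for Ccl21a to 0.38 for Reln. Prox1 was at 860 ± 68.6 CPM in sham, 867 ± 165 CPM in I/R and 928 ± 160 CPM in SBP mice. Of the 14 further lymphatic genes, 1 (Sema3a) passed (1.47% of all genes) and 7 had an unadjusted p under 0.05 (14.0% of all). The median log2 fold change was 0.53, against 0.08 over all genes tested. Lyve1 had 206 ± 67.3 CPM in sham, 297 ± 21.8 CPM in I/R and 310 ± 93.8 CPM in SBP mice (log2 fold change of I/R 0.57, limma adjusted p = 0.29). In this list 5 genes were higher in every I/R than in every sham mouse (10.8% of all genes tested) and 1, Itga9, the integrin subunit of lymphatic valves, was lower (6.45% of all).

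Of 29 genes of the VEGF-C pathway outside the rule, from ligand to receptor and signal, 19 were above the filter. Of these 0 passed in limma, with 3 at an unadjusted p under 0.05 (14.0% of all genes). Flt4, a gene of the rule and so given as a description, had 1109 ± 120 CPM in sham, 1028 ± 135 CPM in I/R and 1061 ± 140 CPM in SBP mice. Nrp2 had 1197 ± 403, 1103 ± 390 and 1141 ± 32.8 CPM. Of the 12 genes of leukocyte trafficking outside the rule that passed the filter, 0 passed in limma and 3 had an unadjusted p under 0.05. Ccl21a, also a gene of the rule and a description, had 712 ± 172 CPM in sham, 510 ± 107 CPM in I/R and 696 ± 313 CPM in SBP mice. Cd47, which signals to phagocytes, had 223 ± 24.4, 264 ± 43.1 and 250 ± 59.9 CPM.

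Matrix and junction genes changed in single members. Of 16 matrix and anchoring genes outside the rule, 1 passed (1.47% of all genes) and 6 had an unadjusted p under 0.05 (14.0% of all). Col4a2, a chain of basement membrane collagen, rose from 174 ± 68.5 to 397 ± 55.1 CPM (1.25 on the log2 scale with an SE of 0.27, adjusted p = 0.0179 in limma). Its call was lost without sham replicate 2 or I/R replicate 2 (adjusted p up to 0.106). The median of the list was 0.33, against 0.08 over all genes. Lama4, a laminin chain, had 1759 ± 428 CPM in sham and 1742 ± 301 CPM in I/R mice. Of 14 junction and valve genes, Foxo1, a transcription factor that restrains valve growth, rose from 223 ± 36.7 to 410 ± 83.8 CPM (0.86 on the log2 scale with an SE of 0.22, adjusted p = 0.0426 in limma). It was lost without sham replicate 1 or 3, I/R replicate 1 or 2 or SBP replicate 3 (adjusted p up to 0.152). Of 7 Notch genes 0 passed, with 2 at an unadjusted p under 0.05.

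The circadian clock list had 10 of its 19 members above the filter. Dbp, a clock output factor, fell from 98.5, 78.2 and 69.1 CPM in sham to 9.65, 7.8 and 20.8 CPM in I/R mice. SBP mice had 48.2, 30.1 and 38.6 CPM, between the other groups and without overlap. The log2 fold change of I/R against sham was -2.37 (SE 0.52, adjusted p = 0.0179 in limma). Arntl (Bmal1), the activator of the clock, went the other way, from 14.1, 33.5 and 17.3 CPM to 116, 93.6 and 66.6 CPM (1.91 on the log2 scale with an SE of 0.47, adjusted p = 0.0371 in limma). Leaving out 1 library ended the Dbp call for sham replicates 1, 2 and 3 and I/R replicate 2 (adjusted p up to 0.123). It ended the Arntl call for sham replicates 1 and 3 and for all I/R replicates (up to 0.176). Without the group in which each was high, Dbp and Arntl would not have passed the filter. A difference was thus built into their selection. Dbp overlaps Sphk2 on the opposite strand.

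The other clock genes did not pass. Rora, which activates Arntl, had 1772 ± 378 CPM in sham and 1147 ± 250 CPM in I/R mice (limma adjusted p = 0.098). Tef had 163 ± 22.7 and 84.8 ± 27.6 CPM, and Nr1d2, a repressor of Arntl, 175 ± 20.8 and 81.5 ± 33.3 CPM. Clock had 144 ± 48.5 and 260 ± 56 CPM. The repressors Per2 and Per3, named after their values were seen, had log2 fold changes of -1.29 and -1.45 (limma adjusted p = 0.203 and 0.0717). In all, 6 of the 10 were lower in every I/R than in every sham mouse (6.45% of all genes tested) and 8 of 10 had a negative fold change, with a median of -0.78. An unadjusted p under 0.05 was reached by 8 of the 10 (14.0% of all genes). Dbp and Arntl are counted there, and a difference was built into their selection. For SBP against I/R the median was 0.57, against 0.02 over all genes, and 0 passed. An unadjusted p under 0.05 was reached there by 5 of the 10 (4.25% of all genes). Dbp, Per2 and Rora were higher in every SBP than in every I/R mouse. Of all genes, 10.0% did not overlap in either direction.

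Dbp and Arntl differed in the same direction in other classes. In I/R mice Dbp had 6.14 CPM in other blood endothelial and 6.57 CPM in non-endothelial nuclei, against 90.5 and 88.5 CPM in sham. Arntl had 104 CPM in both classes in I/R mice, against 11 and 11.8 CPM. The labels give no hour of tissue collection, so hour of collection and group cannot be told apart.

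**Figure D5:**
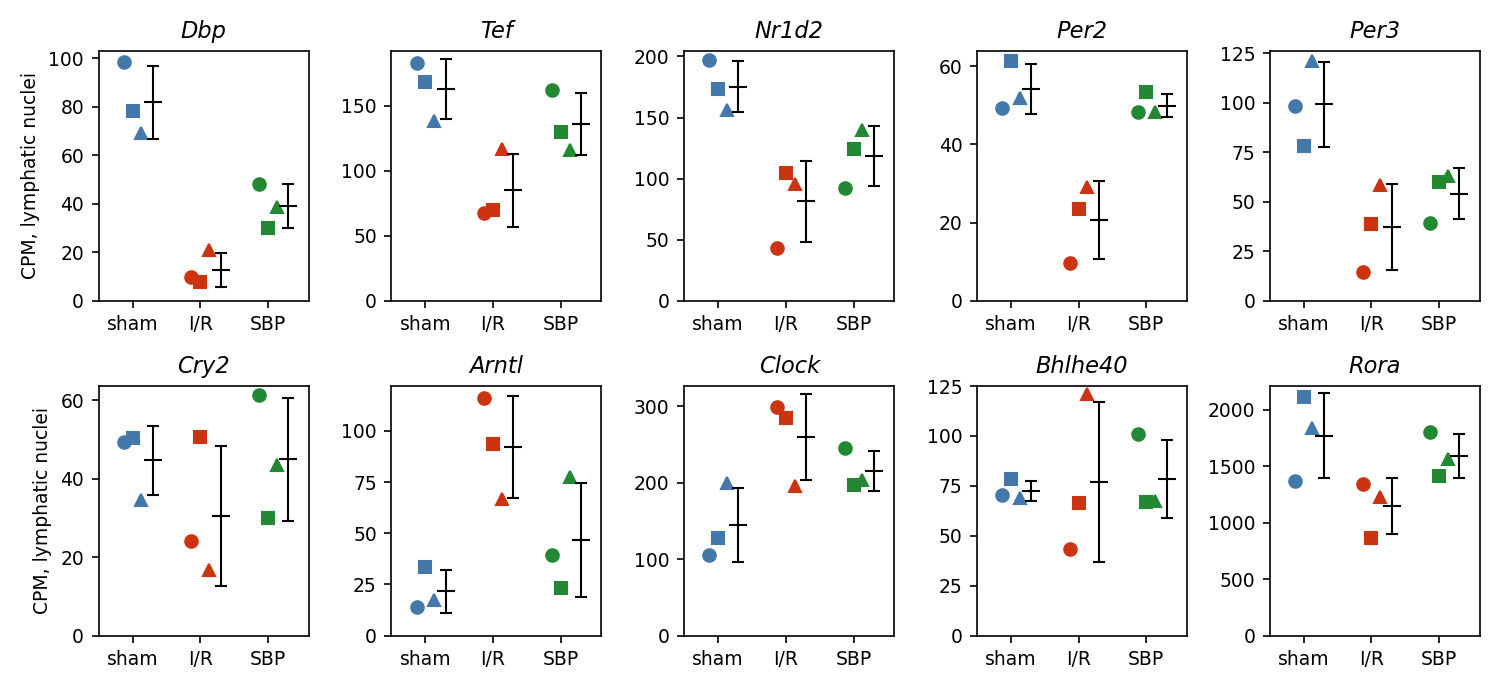
CPM in lymphatic nuclei of the 10 clock genes that passed the filter. Coloured points are mice (circle, square and triangle for replicates 1, 2 and 3), black bars are the mean ± SD of 3, and every axis starts at 0. Dbp is lower and Arntl higher in all I/R than in all sham mice, and these 2 passed the test. Dbp would not have passed the filter without the sham mice, nor Arntl without the I/R mice.

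SBP against I/R gave 1 call among 4898 genes (0.0204%), with 208 genes at an unadjusted p under 0.05 (4.25%). The called gene was Dmd (dystrophin), a gene of high level in cardiomyocytes, with 753, 702 and 704 CPM in I/R and 1738, 1380 and 1227 CPM in SBP mice (0.99 on the log2 scale with an SE of 0.18, adjusted p = 0.0479 in limma). Sham mice had 934 CPM on average. Without nuclei over 3 times the median depth the fold change was -0.25 (adjusted p = 0.989), and with at least 4 lymphatic genes required it was -0.10. The call was kept in 1 of the 9 fits without 1 library, that without I/R replicate 1. It was lost without any 1 of the others (adjusted p up to 0.452), and 2 different genes were called without SBP replicate 2. Non-endothelial nuclei had 5731 CPM of Dmd in I/R and 5501 CPM in SBP mice.

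The 9 genes next by unadjusted p did not pass (limma adjusted p from 0.309 to 0.748). Airn, a non-coding RNA antisense to Igf2r, had 693 ± 159 CPM in I/R and 1277 ± 262 CPM in SBP mice. Jph2 and Myom1, cardiomyocyte genes, had 25 and 83.8 CPM in I/R and 93.4 and 172 CPM in SBP mice. Pdlim1 had 408 ± 70.9 CPM in I/R and 196 ± 41.3 CPM in SBP mice (-1.04 on the log2 scale with an SE of 0.26). Igfbp7, a secreted endothelial protein, had 309 ± 77.1 and 139 ± 94.1 CPM. It passed in 3 of 22 alternatives (smallest limma adjusted p 0.00465). These were the fit without SBP replicate 2, that with at least 4 lymphatic genes and that without nuclei over 3 times the median depth. Airn and Pip5k1b passed in 1 alternative each. Glis3, a zinc finger factor, had 992 ± 322 and 506 ± 203 CPM. Pip5k1b, Dnajc10 and Aqp1 were higher in SBP mice, with log2 fold changes of 1.84, 1.29 and 1.57. All 10 interferon and antigen presentation genes tested had a negative fold change in SBP against I/R, with a median of -0.32 against 0.02 over all genes. Of these 0 passed, with 2 at an unadjusted p under 0.05 (4.25% of all genes).

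SBP against sham gave 11 calls (0.225%). These were 5 genes that rose (0.102%) and 6 that fell (0.122%), and 541 genes had an unadjusted p under 0.05. Without sham replicate 3 there were 2 calls, without sham replicate 1 there were 6 and without SBP replicate 2 there were 7. More genes were called under other settings, with 62 when at least 4 lymphatic genes were required, 53 without nuclei over 3 times the median depth, 47 from the mean of the deposited values and 22 with only the 6 mice compared. The sham mice were those of the I/R comparison, and the median log2 fold change over all genes was 0.12. Beside Sema3a and Cmah, Dlg1, a scaffold protein of cell polarity, rose from 1519 ± 225 to 2759 ± 186 CPM (0.87 on the log2 scale with an SE of 0.18, adjusted p = 0.0403 in limma). It had 318 and 334 CPM in other blood endothelial nuclei of the same groups. The call was lost without any 1 sham or SBP library (adjusted p up to 0.168). Alcam (log2 fold change 2.67) was lost without sham replicate 3 or SBP replicate 2 (up to 0.134). Eef1a1, a translation factor with pseudogenes, rose by 1.39 and was lost without any sham library or SBP replicate 1 or 2 (up to 0.192).

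The 6 genes that fell were genes of muscle. Myl2 fell by 1.79, Myh6 (a myosin heavy chain) by 1.75, Tnni3 by 1.47, Myl3 by 1.39, Mb (myoglobin) by 1.19 and Pgam2 by 2.42 on the log2 scale. Of these calls, that of Myl2 was kept without any 1 library and lost with no limit on excluded genes (limma adjusted p = 0.177). With no such limit, 1 of the 11 calls of this comparison was kept. Over all alternatives the largest limma adjusted p was 0.298 for Myh6, 0.326 for Tnni3, 0.403 for Myl3, 0.504 for Mb and 0.213 for Pgam2. The values that follow are for single libraries left out. Tnni3 was lost without sham replicate 3 (adjusted p = 0.0642). Myh6 was lost without any sham library or SBP replicate 1 (up to 0.115), and Myl3 without sham replicate 1 or 2 or SBP replicate 2 (up to 0.083). Mb was lost without any sham library or SBP replicate 2 (up to 0.124), and Pgam2 without I/R replicate 3 or any SBP library (up to 0.0871), with no test without any 1 sham library. Pgam2 (high in sham mice) and Alcam (high in SBP mice) passed the filter only through the group where they were high. Mb had 708 ± 105 CPM in sham and 313 ± 86.3 CPM in SBP lymphatic nuclei, and 1439 and 690 CPM in other blood endothelial nuclei. The part of cardiomyocyte transcripts in these 6 was not tested.

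Whether lymphatic nuclei responded to I/R differently from other blood endothelial nuclei was tested within mice, as the difference between the 2 fold changes. Of 4885 genes, 1 passed (0.0205%) and 421 had an unadjusted p under 0.05 (8.62%). The gene was Adam12, a metalloprotease. In lymphatic nuclei it had 549, 765 and 631 CPM in sham and 704, 437 and 266 CPM in I/R mice, with overlap between the groups. In other blood endothelial nuclei it rose from 12.4 ± 6.24 to 152 ± 30.2 CPM. The log2 fold changes were -0.56 and 3.23, and they differed by -3.79 (SE 0.51, adjusted p = 0.0478 in limma). The call was lost without sham replicate 2 or 3, any I/R library or SBP replicate 3 (adjusted p up to 0.195). Non-endothelial nuclei went from 9.61 to 200 CPM of Adam12. Cmah came next, with log2 fold changes of 2.97 in lymphatic and -0.1 in other blood endothelial nuclei (difference 3.07, SE 0.47), and did not pass (limma adjusted p = 0.0794). Tll1 and Tnc rose in other blood endothelial nuclei, by 2.47 and 3.86, with 0.19 and 0.34 in lymphatic nuclei. Their differences did not pass (limma adjusted p = 0.151 for both).

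For the 72 genes that passed in lymphatic nuclei, the difference was below an unadjusted p of 0.05 in 35 (8.62% of all genes) and passed adjustment in 0. These genes had been chosen for their change in lymphatic nuclei, which is part of the difference. The count of 35 was thus favoured by that choice and is a description. In other blood endothelial nuclei, which came from the same mice, 25 of the 72 had an adjusted p of at most 0.05, where 232 of 4898 genes were called (4.74%). For Sema3a the difference was 0.88 (SE 0.45, adjusted p = 0.626 in limma), at 23.4 and 37.4 CPM in other blood endothelial nuclei. For Aqp1 it was -1.74 (SE 0.46, adjusted p = 0.336 in limma). For SBP against I/R, 0 of 4885 differences passed, with 163 at an unadjusted p under 0.05 (3.34%).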

How the data were processed

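Nuclei of 9 mouse hearts were sequenced on a 10x platform. Per the labels' processing notes, the authors used Cell Ranger 4.0, STAR and Seurat 3.2.0 on GRCm38. The study's methods name other versions of Cell Ranger and Seurat, so the versions are uncertain. Per those methods, reads were down-sampled to a similar depth per cell, nuclei with few genes or many mitochondrial reads were left out, and mitochondrial genes were removed. The deposited values are the natural log of 1 plus 10000 times a gene's share of a nucleus's UMIs. UMI counts were recovered from them and summed over lymphatic nuclei per mouse, so mice and not nuclei were the replicates. Levels were fitted on a log scale, and no count model was run.

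Sums were scaled by TMM and fitted as log2(CPM + 4.76) with limma 3.58.1 (trend and robust options, R 4.3.3) over all 9 mice. The pseudocount is the CPM of 1 UMI in the median library of 210105 UMIs, and fold changes on this scale understate changes of low genes. Genes needed 47.6 CPM (10 UMIs) in at least 3 mice and 15 UMIs in all, which left 4898. A gene was called at 0.05 or less after Benjamini-Hochberg adjustment, with a log2 fold change beyond 0.25 in size. Named genes were the 10 called genes with the largest fold change in each direction whose mice did not overlap between groups, or all called genes and those next by p up to 10 where fewer were called. From each list up to 4 genes of highest level and the called ones were named, and 20 genes by their ratio to other endothelial nuclei. Genes whose call held without any 1 mouse, genes low in lymphatic nuclei, Adam12, Tll1 and Tnc were chosen after their values were seen. Shares were compared with two-sided exact permutation tests over mice and with limma. The difference between cell classes was fitted on within-mouse differences.

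Members and lists were chosen with earlier results of these data known. No doublet caller was run. Doublets were limited by the excluded genes and by an alternative without nuclei over 3 times the median depth. Strand use in counting is not given in the sources used here, and Reln, Prox1, Dbp, Cmah and Airn overlap other genes. The fit was tested on simulated data, where the share of false calls was somewhat above the nominal level, and small changes were mostly missed, so genes near the threshold are less certain than their adjusted p. Alternatives covered scaling, pseudocount, filter, samples, the rule and each mouse left out. Positions follow gencode vM21. Python 3.11.15 with scipy 1.17.1 was used elsewhere.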

Additional observations from a re-analysis of the deposited data

Results flagged for a closer look

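Adam12 was marked because its difference between I/R and sham was not the same in the 2 classes of endothelial nuclei, by a test of that difference within mice. The log2 fold change of I/R against sham was -0.56 in lymphatic and 3.23 in other blood endothelial nuclei, and the difference was -3.79 (SE 0.51, limma adjusted p = 0.0478, 1 of 4885 genes). All 3 I/R mice had more Adam12 in other blood endothelial nuclei than all 3 sham mice, while lymphatic levels overlapped. The adjusted p was 0.0748 with a replicate block and between 0.033 and 0.195 when 1 library was left out. In the same groups, Adam12 in non-endothelial nuclei went from 9.61 to 200 CPM, and the part of those transcripts in the difference was not tested.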

How the results depend on the processing

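The sign of the fold change was the same for all 72 genes called in I/R against sham in every alternative that tested them. These genes were chosen for that difference in the same mice, so the sign was favoured in advance. The number called ran from 20 to 105. It was 25 when no excluded gene was allowed, and 20 to 95 when 1 library was left out. For SBP against I/R, 0 genes were called with total UMIs in place of TMM, a pseudocount of 1 CPM, the mean of the deposited values, only the 6 mice compared, the replicate block, no excluded gene, at least 2 endothelial markers, or no limit on excluded genes (this last chosen after seeing the data), and 0 to 3 without 1 library. With at least 4 lymphatic genes, and also without the deepest nuclei, 1 gene was called for SBP against I/R. It was Igfbp7, which fell, and not Dmd. The fold change of Dmd was -0.00 for the mean of the deposited values, -0.10 with at least 4 lymphatic genes, -0.36 with no excluded gene and -0.25 without the deepest nuclei. For SBP against sham the number was 47 for the mean of the deposited values, 22 with only the 6 mice compared, 62 with at least 4 lymphatic genes, 53 without the deepest nuclei and 4 with no limit on excluded genes, and 2 to 16 without 1 library. The difference of the I/R effect between classes gave 2 calls with a pseudocount of 3 UMIs, 0 with the replicate block and 0 to 3 without 1 library, and that of SBP against I/R gave 0 to 0. On the log2 scale, the share of all nuclei in I/R against sham was -0.04 with no limit on excluded genes and 0.61 with no excluded gene, and SBP against sham was 0.71 in the latter. Without 1 library it ran from -0.23 to 0.31, from 0.05 to 0.31 for SBP against I/R and from -0.03 to 0.51 for SBP against sham. The share of endothelial nuclei ran from -0.01 to 0.58, from -0.13 to 0.11 and from -0.02 to 0.57, and SBP against I/R was 0.11 with at least 4 lymphatic genes. The cause of these shifts was not tested. Same-numbered mice did not deviate together (correlations from -0.123 to 0.115), so the numbers do not set a pairing. The block gave 84, 0 and 16 calls in the 3 comparisons. With 107627 to 315932 lymphatic UMIs per mouse, genes that reached 47.6 CPM in fewer than 3 mice were left out. Without that filter 10143 genes were tested, with 70 calls in I/R against sham.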

Other observations

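Several lists of genes outside lymphatic biology were also measured in lymphatic nuclei. Over all genes tested, 14.0% had an unadjusted p under 0.05 in I/R against sham and the median log2 fold change was 0.08. Whether uncalled members of these lists passed the filter only through the group where they were high was not examined. Of 12 glucocorticoid-responsive genes 0 passed in I/R against sham (2 at an unadjusted p under 0.05 in limma), with a median log2 fold change of 0.21. Of 12 genes of acute inflammation 0 passed (2 unadjusted), with a median of 0.14. The 3 metallothionein and zinc genes tested had a median of 2.00, with 0 that passed and 2 at an unadjusted p under 0.05. Of 6 immediate early genes 0 passed (2 unadjusted), with a median of 0.55. Of 14 proliferation genes 2 were above the filter, and 0 passed (2 unadjusted). The 14 endothelial genes held 2 that rose, Cyyr1 and Ldb2, and the 8 capillary genes held 1 that fell, Aqp1, where 1.04% of all genes rose and 0.429% fell. An unadjusted p under 0.05 was reached by 3 of the 14 and 5 of the 8. The 6 endocardial genes had a median of -0.34 and the 7 arterial and venous genes 0.00, and 0 passed in both. None of the lists of lymphocyte, Schwann and mesothelial genes had a member above the filter.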
